A study of Mus musculus with 10 samples.

Results

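The genes that copy DNA and supply its building blocks were followed in OP9 cells through 41 genes, taken by name from the deposited table of 26888 genes. They encode the licensing and firing factors of replication origins, the replicative polymerases, the sliding clamp and its loader, the single-strand binding protein RPA, the enzymes that process lagging-strand fragments, enzymes of deoxynucleotide supply, and chromatin assembly factor CAF-1. All 41 exceeded 0.5 RPM (reads of a gene scaled to a common total of reads on genes) in at least 1 library, in reaggregated and in flat cells alike, so the filter on low values removed none of them. OP9 is a stromal line of mouse calvaria, labelled as foetal, of strain (C57BL/6xC3H)F2-op/op in every sample, which supports blood precursors in culture. RNA-seq was made from 6 reaggregates, which were held for 48 h on nitrocellulose filters where liquid meets gas, and from 4 flat cultures kept under medium. Reaggregates 2, 4 and 6 received IL-3, labelled as 200 μg/μl, and reaggregates 1, 3 and 5 did not. The labels name the de Bruijn lab for flat cultures 2 and 4, whereas flat cultures 1 and 3 and all reaggregates carried no label of source. A time in culture was not labelled for the flat cells.

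In dividing cells, origins are licensed when the MCM helicase is loaded onto DNA, with the help of Cdc6 and Cdt1, and licensed origins fire once kinases and further helicase subunits act on them. Polymerases, held on DNA by the PCNA ring, then copy both strands while ribonucleotide reductase and thymidylate synthase provide deoxynucleotides. Many of these genes are transcribed around the entry into S phase under E2F transcription factors, and are low in cells that have left the cycle.

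The libraries held between 7.34 and 9.42 M reads on genes, as estimated from the value of a single read. The lowest value of any member was that of *Cdc6* in reaggregate 1, equal to about 20 reads, so none of the 41 genes was near the limit of 3 reads, which was at most 0.409 RPM and covers counting error only. Of 7 stromal markers tested 4 were called higher in the reaggregates, and the 8 listed summed to 23140 ± 3043 RPM in the reaggregates (SD, n = 6) and 14700 ± 3539 RPM in the flat cultures (SD, n = 4). *Vim* lay between 4140 and 7800 RPM and *Col1a1* between 698 and 7190 RPM, although *Mcam* did not exceed 9.10 RPM and *Thy1* did not exceed 0.359 RPM, about 3 reads, in any library. The blood markers *Ptprc* and *Gata1* and the epithelial markers *Epcam* and *Krt18* were listed at 0 in all 10 libraries, while *Cd68*, on the list of blood markers, reached 8.23 RPM, and none of the 5 endothelial markers exceeded 0.716 RPM. Reaggregates 1 and 2, 3 and 4, and 5 and 6 resembled each other, and nothing in the labels says that they came from separate cultures, so p-values measure only the spread between these samples.

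Reaggregated cells held less of these transcripts than flat cells. The fitted log2 fold change, on the scale of log2(RPM + 0.5), was below 0 for 41 of 41 members, under median-ratio scaling and quantile normalization as well, with a median of −1.10 beside 0.04 for all 16933 genes tested. With limma, 26 members fell at least 2-fold at an adjusted p of at most 0.05 and 0 rose, where 6.53% of all genes tested fell and 7.32% rose by the same rule. At an unadjusted p below 0.05 by limma, 37 members were lower, where 7337 of all genes tested differed in either direction. The values of all 6 reaggregates lay below those of all 4 flat cultures for 28 members, where 11.4% of all genes did so. In bulk RNA, fewer cycling cells and less RNA of these genes per cell cannot be told apart. When consecutive reaggregates were averaged into 3 samples, 15 members fell, where 430 of 16598 genes did, and all 15 were among the 26. The calls lost were those of *Pcna*, *Tyms* and all called polymerase, RPA and CAF-1 genes.

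The sum of the 41 genes shows how the libraries were ordered. It was 3694, 1861, 3046 and 2182 RPM in flat cultures 1 to 4, and between 1071 and 1225 RPM in the reaggregates. Flat cultures 1 and 3 were thus above flat cultures 2 and 4, which were in turn above every reaggregate. Flat culture 1 held the highest value of 26 members, flat culture 3 that of 14, and flat culture 4 that of 1, *Rrm2*.

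**Figure D1:**
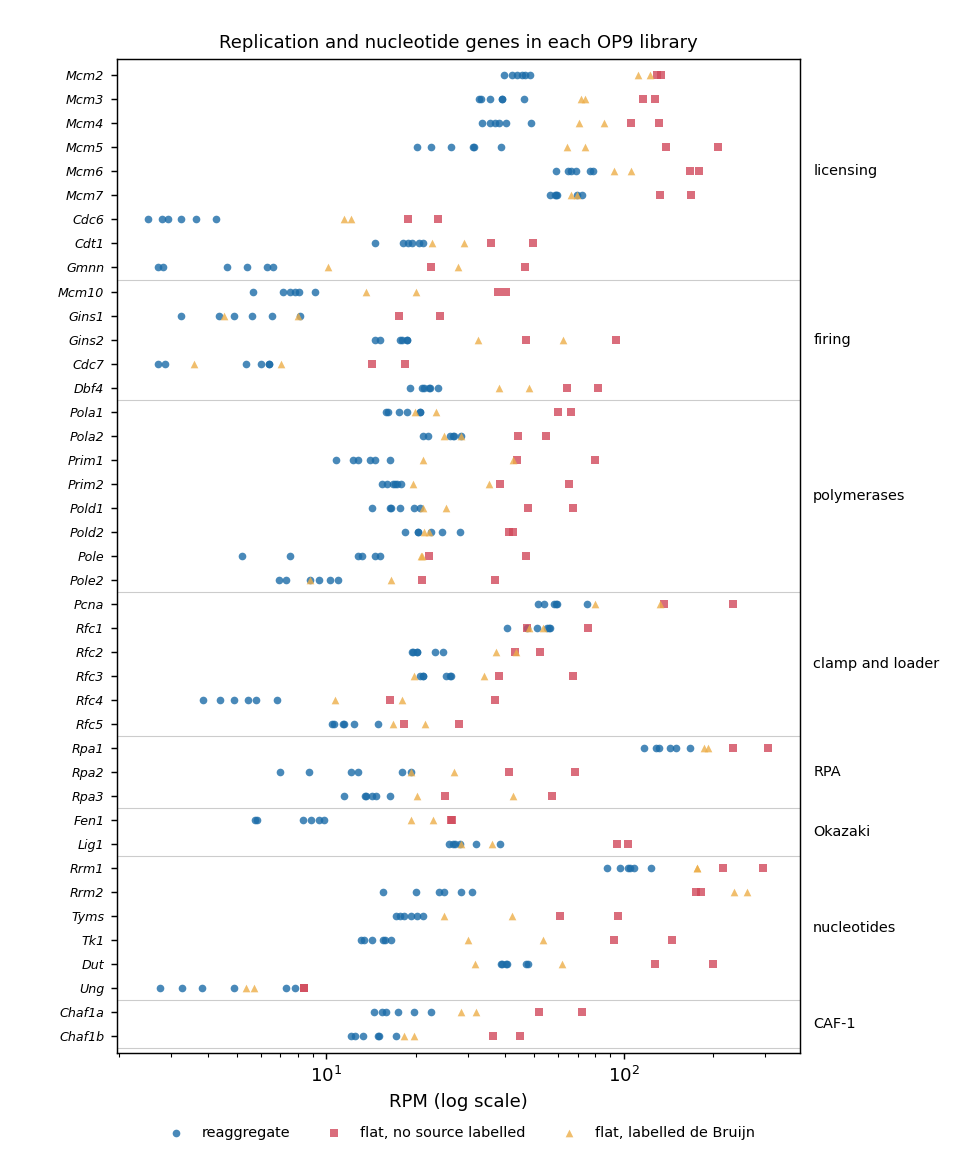
RPM of each of the 41 genes in each library, on a log axis, with genes grouped by role. Circles are the 6 reaggregates, squares the flat cultures without a label of source and triangles those labelled de Bruijn, and the circles lie to the left of all 4 flat cultures in 28 genes, and squares lie to the right of both triangles in 33.

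Among the licensing genes, 6 of 9 fell, with a median log2 fold change of −1.32. *Gmnn* encodes geminin, which binds Cdt1 and prevents a second round of licensing, and changed most within this role. It was at 46.5, 10.1, 22.5 and 27.7 RPM in flat cultures 1 to 4, and at 2.72, 5.03 and 6.59 RPM (lowest, median and highest) in the reaggregates. All flat cultures were above all reaggregates, and flat culture 2 was the lowest of them. The log2 fold change was −2.25 (SE 0.39, limma adjusted p = 0.00233). *Cdc6*, the loader that brings MCM to the origin recognition complex, was at 18.8, 12.1, 23.7 and 11.5 RPM in the flat cultures and at 2.51, 3.09 and 4.25 RPM in the reaggregates, a log2 fold change of −2.15 (limma adjusted p = 0.00023). The groups were again separate, with flat cultures 1 and 3 highest.

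The MCM helicase is a ring of 6 related subunits, *Mcm2* to *Mcm7*, and these did not all follow the same pattern across the flat cultures. *Mcm2* was at 134, 123, 129 and 112 RPM in flat cultures 1 to 4 and at 39.7, 44.5 and 48.3 RPM in the reaggregates. The flat cultures were close to each other and well clear of the reaggregates (log2 fold change −1.48, SE 0.12, limma adjusted p = 3.756e-05). *Mcm5* was at 208, 64.5, 139 and 74.0 RPM in the flat cultures and at 20.1, 28.6 and 38.8 RPM in the reaggregates, so that it was high in flat cultures 1 and 3 and intermediate in 2 and 4 (log2 fold change −1.95). *Mcm3* and *Mcm4* fell with log2 fold changes of −1.32 and −1.31. *Mcm7* was at 169, 69.8, 132 and 66.7 RPM in the flat cultures against 56.4, 59.5 and 72.4 RPM in the reaggregates. Here only flat cultures 1 and 3 stood above the reaggregates, flat cultures 2 and 4 lay among them, and the difference did not pass the test (log2 fold change −0.69, limma adjusted p = 0.0553). *Mcm6* was at 167, 92.8, 179 and 106 RPM in the flat cultures and from 59.1 to 78.9 RPM in the reaggregates (log2 fold change −0.92, limma adjusted p = 0.00613). *Cdt1*, which helps to load MCM, was at 35.7, 29.0, 49.7 and 22.7 RPM and from 14.6 to 21.2 RPM (log2 fold change −0.80, limma adjusted p = 0.0159). Both genes had separate groups and a fold below the threshold.

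Of the 5 genes that act when origins fire, 3 fell. *Mcm10*, which joins the helicase as it is activated, was at 37.9, 13.6, 40.2 and 20.0 RPM in flat cultures 1 to 4 and from 5.64 to 9.12 RPM in the reaggregates. The log2 fold change was −1.70 (SE 0.29), with a limma adjusted p of 0.00226. Flat cultures 1 and 3 held about equal amounts, flat cultures 2 and 4 held less, and no flat culture reached down to the reaggregates. *Gins2*, of the GINS complex that travels with MCM, fell by 1.66 on the log2 scale, and *Dbf4*, the regulatory partner of the Cdc7 kinase, by 1.35. The kinase gene itself was not called: *Cdc7* was at 14.2, 3.58, 18.4 and 7.05 RPM in the flat cultures and 2.71, 5.71 and 6.42 RPM in the reaggregates (log2 fold change −0.89, limma adjusted p = 0.13). *Gins1*, at 24.1, 4.53, 17.5 and 8.02 RPM and 3.25, 5.25 and 8.17 RPM, was likewise not called (log2 fold change −1.03, limma adjusted p = 0.0799). In both genes flat cultures 1 and 3 were above all reaggregates and flat culture 2 lay among them, while flat culture 4 lay among them in *Gins1* and just above them in *Cdc7*.

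In the role of polymerases 6 of 8 genes fell, with a median log2 fold change of −1.03, and the groups were separate for 4. All 6 lost their call when consecutive reaggregates were averaged. *Prim1*, the catalytic subunit of the primase that starts each fragment, was at 79.8, 21.2, 43.9 and 42.5 RPM in the flat cultures and 10.8, 13.4 and 16.3 RPM in the reaggregates. Flat culture 2 was closest to the reaggregates and still above them (log2 fold change −1.62, SE 0.29, limma adjusted p = 0.00286). *Pold1*, the catalytic subunit of polymerase delta, was at 47.8, 21.2, 67.6 and 25.3 RPM and 14.2, 17.1 and 20.7 RPM, with flat culture 2 barely above the highest reaggregate. *Prim2*, *Pold1*, *Pole*, *Pole2* and *Pola1* fell with log2 fold changes from −1.24 to −1.01. For *Pole2*, flat culture 2, at 8.82 RPM, lay within the range of the reaggregates, from 6.93 to 10.9 RPM. *Pole2* was called in 9 of 25 alternatives and *Pola1* in 11. For *Pola1*, the catalytic subunit of polymerase alpha, the flat cultures were at 60.2, 23.4, 66.4 and 19.8 RPM and the reaggregates at 15.9, 18.1 and 20.7 RPM. Flat culture 4 lay within the range of the reaggregates, and the fold was just past the threshold (limma adjusted p = 0.0368). The second subunits of polymerases alpha and delta were not called. *Pola2* was at 44.0, 24.9, 54.8 and 28.4 RPM in the flat cultures and from 21.2 to 28.3 RPM in the reaggregates (log2 fold change −0.52, limma adjusted p = 0.09). *Pold2* was at 42.5, 22.1, 41.1 and 21.3 RPM and from 18.4 to 28.2 RPM (log2 fold change −0.43, limma adjusted p = 0.166). Flat cultures 2 and 4 lay among the reaggregates in *Pold2*, whose log2 fold change against those cultures alone was 0.03, whereas in *Pola2* flat culture 2 did so and flat culture 4 was just above them.

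*Pcna* encodes the sliding clamp and the 5 *Rfc* genes encode the complex that loads it; 3 of the 6 fell. *Rfc4* was at 36.9, 10.7, 16.3 and 17.9 RPM in flat cultures 1 to 4 and at 3.85, 5.17 and 6.81 RPM in the reaggregates, which was the largest change of this role (log2 fold change −1.76, SE 0.30, limma adjusted p = 0.00221). *Pcna*, at 233, 80.3, 137 and 132 RPM and 51.5, 58.9 and 75.5 RPM, had a log2 fold change of −1.19, and *Rfc2* one of −1.03. The groups were separate in all 3 genes. The large subunit *Rfc1* was the member that differed least, at 47.3, 48.1, 75.8 and 53.4 RPM in the flat cultures and 40.4, 53.1 and 56.4 RPM in the reaggregates. Flat culture 3 alone was above all reaggregates, the log2 fold change was −0.12 with a 95% interval from −0.48 to 0.24 (limma adjusted p = 0.603), and the sign turned positive when flat culture 3 was left out, at 0.03. *Rfc3* was at 67.7, 19.7, 38.2 and 33.9 RPM and from 20.7 to 26.3 RPM with overlapping groups (log2 fold change −0.63, limma adjusted p = 0.0981). *Rfc5*, at 28.0, 16.7, 18.3 and 21.4 RPM and from 10.4 to 14.9 RPM, had separate groups, although the fold was too small for a call (log2 fold change −0.79, limma adjusted p = 0.00989).

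RPA coats single-stranded DNA as a trimer, and 2 of its 3 genes fell, though neither was called with consecutive reaggregates averaged. *Rpa2* was at 68.7, 19.3, 41.2 and 26.8 RPM in the flat cultures and 6.97, 12.5 and 19.3 RPM in the reaggregates, with reaggregate 6 level with flat culture 2 and the other flat cultures above all reaggregates (log2 fold change −1.48, SE 0.37, limma adjusted p = 0.0127). *Rpa3* fell with a log2 fold change of −1.23. *Rpa1*, the subunit with the main DNA-binding domains, was at 307, 192, 233 and 186 RPM and 117, 137 and 167 RPM, and its separate groups differed by less than 2-fold (log2 fold change −0.70, limma adjusted p = 0.0106).

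Lagging-strand fragments are trimmed by the nuclease of *Fen1* and sealed by the ligase of *Lig1*, and these genes differed in pattern. *Fen1* was at 26.2, 22.8, 26.4 and 19.3 RPM in flat cultures 1 to 4 and 5.77, 8.61 and 9.84 RPM in the reaggregates. All flat cultures were close together and above the reaggregates (log2 fold change −1.53, SE 0.21, limma adjusted p = 0.000571). *Lig1* was at 103, 28.4, 94.7 and 36.1 RPM in the flat cultures and 25.9, 27.7 and 38.3 RPM in the reaggregates. Only flat cultures 1 and 3 were high, flat cultures 2 and 4 lay within the range of the reaggregates, and the difference was not called (log2 fold change −0.93, limma adjusted p = 0.0587).

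Nucleotide supply held the member with the largest change, *Rrm2* (ENSMUSG00000020649, chr12:25393106-25399011 in NCBIM37). It encodes the small subunit of ribonucleotide reductase and was at 175, 235, 182 and 259 RPM in flat cultures 1 to 4 and at 15.5, 24.4 and 30.9 RPM in the reaggregates. Every flat culture was several times above every reaggregate (log2 fold change −3.14, SE 0.20, limma adjusted p = 1.699e-05). The large subunit *Rrm1* was at 295, 177, 216 and 177 RPM and 87.7, 104 and 124 RPM, also with separate groups and a smaller change (log2 fold change −1.03, SE 0.17, limma adjusted p = 0.00157). *Tk1*, the cytosolic thymidine kinase, was at 145, 29.9, 92.8 and 53.5 RPM in the flat cultures and 13.1, 14.9 and 16.5 RPM in the reaggregates, whose values were close together (log2 fold change −2.18, limma adjusted p = 0.00138). Thymidylate synthase, *Tyms*, had a log2 fold change of −1.38. The enzymes that keep uracil out of DNA were not called. *Dut*, the dUTPase, was at 199, 31.6, 127 and 62.2 RPM and 38.6, 40.4 and 47.6 RPM, with flat culture 2 below every reaggregate and the other flat cultures above them all (log2 fold change −0.99, limma adjusted p = 0.0784). *Ung*, the uracil glycosylase, was at 8.40, 5.37, 8.38 and 5.71 RPM and 2.76, 4.34 and 7.81 RPM, and reaggregates 3 and 4 lay among the flat cultures (log2 fold change −0.51, limma adjusted p = 0.211).

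CAF-1 deposits histones behind the fork. *Chaf1a* was at 51.7, 28.4, 72.4 and 31.8 RPM in flat cultures 1 to 4 and 14.4, 16.7 and 22.5 RPM in the reaggregates (log2 fold change −1.28, SE 0.26, limma adjusted p = 0.0046). *Chaf1b*, a smaller subunit, was at 44.9, 18.3, 36.4 and 19.7 RPM and 12.1, 14.1 and 17.2 RPM (log2 fold change −0.96, limma adjusted p = 0.0171). Both had separate groups, the fold of *Chaf1b* was just below the threshold, and *Chaf1a* was not called with consecutive reaggregates averaged. Of the 15 members not called, 5 with separate groups, *Mcm6*, *Cdt1*, *Rfc5*, *Rpa1* and *Chaf1b*, passed the adjusted p and not the fold, and the other 10 did not pass the adjusted p.

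The source label divided the flat cultures in most of these genes. Flat cultures 2 and 4, labelled de Bruijn, were both below flat cultures 1 and 3 for 33 members, where 34.6% of 16115 genes tested showed this order. They were both above them for 1 member, *Rrm2*, where 3027 of the 16115 genes showed that order. With limma 8 members were called lower in the cultures labelled de Bruijn and 0 higher, where 6.96% of genes were called lower; 22 members had an unadjusted p below 0.05, as did 4016 of all genes tested. The largest differences were those of *Dut*, *Gins1*, *Lig1*, *Cdc7*, *Pola1* and *Tk1*, with log2 differences of −1.83, −1.69, −1.61, −1.59, −1.53 and −1.52 (limma adjusted p from 0.0141 to 0.0489), and *Mcm5* and *Pold1* were also called. Their values in each culture are given above. The median over members was −0.87 beside −0.18 for all genes, and median-ratio scaling, which moved the median of all genes to −0.01, left −0.69 for the members. Without the filter on low values 0 members and 155 of all genes were called lower, and 20 members had an unadjusted limma p below 0.05. Under quantile normalization 737 genes were called higher and 903 lower in place of 466 and 1121, and 3 members were called. Only *Rrm2* had a difference above 0 as deposited, of 0.47, and it was not called; *Mcm2* under median-ratio scaling and *Rfc5* under quantile normalization also lay above 0. Leaving out any flat culture leaves a lone culture on one side, which is assumed to vary like the others. The median over members then lay between −1.09 and −0.74, beside −0.23 to −0.14 for all genes. Few or no member calls were left in these fits, while calls among all genes ended only without flat culture 1 or 3.

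Because of this division, the reaggregates were set against each pair of flat cultures. The reaggregates are shared between these comparisons, and their source was not labelled. Against flat cultures 1 and 3, 35 members fell, where 6.49% of all genes did, with a median log2 fold change of −1.68. Against flat cultures 2 and 4, 13 members fell, where 10.6% of all genes did, with a median of −0.77 beside 0.13 for all genes. These 13 were *Mcm2*, *Mcm4*, *Mcm5*, *Cdc6*, *Gmnn*, *Mcm10*, *Gins2*, *Prim1*, *Rfc4*, *Rpa3*, *Fen1*, *Rrm2* and *Tk1*, and all 13 were also called against flat cultures 1 and 3. Another 22 members were called against flat cultures 1 and 3 alone, among them *Lig1*, with log2 fold changes of −1.73 and −0.12 against the respective pairs, *Dut*, with −1.91 and −0.08, and *Mcm7*, with −1.25 and −0.13. *Rrm2* had −2.91 and −3.37, and *Mcm2* −1.56 and −1.40. The remaining 6, *Pola2*, *Pold2*, *Rfc1*, *Rfc5*, *Rpa1* and *Ung*, were called against neither. Both flat cultures of a pair lay above all reaggregates for 40 members in flat cultures 1 and 3, where 20.4% of genes did, and for 28 in flat cultures 2 and 4, where 25.1% did.

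**Figure D2:**
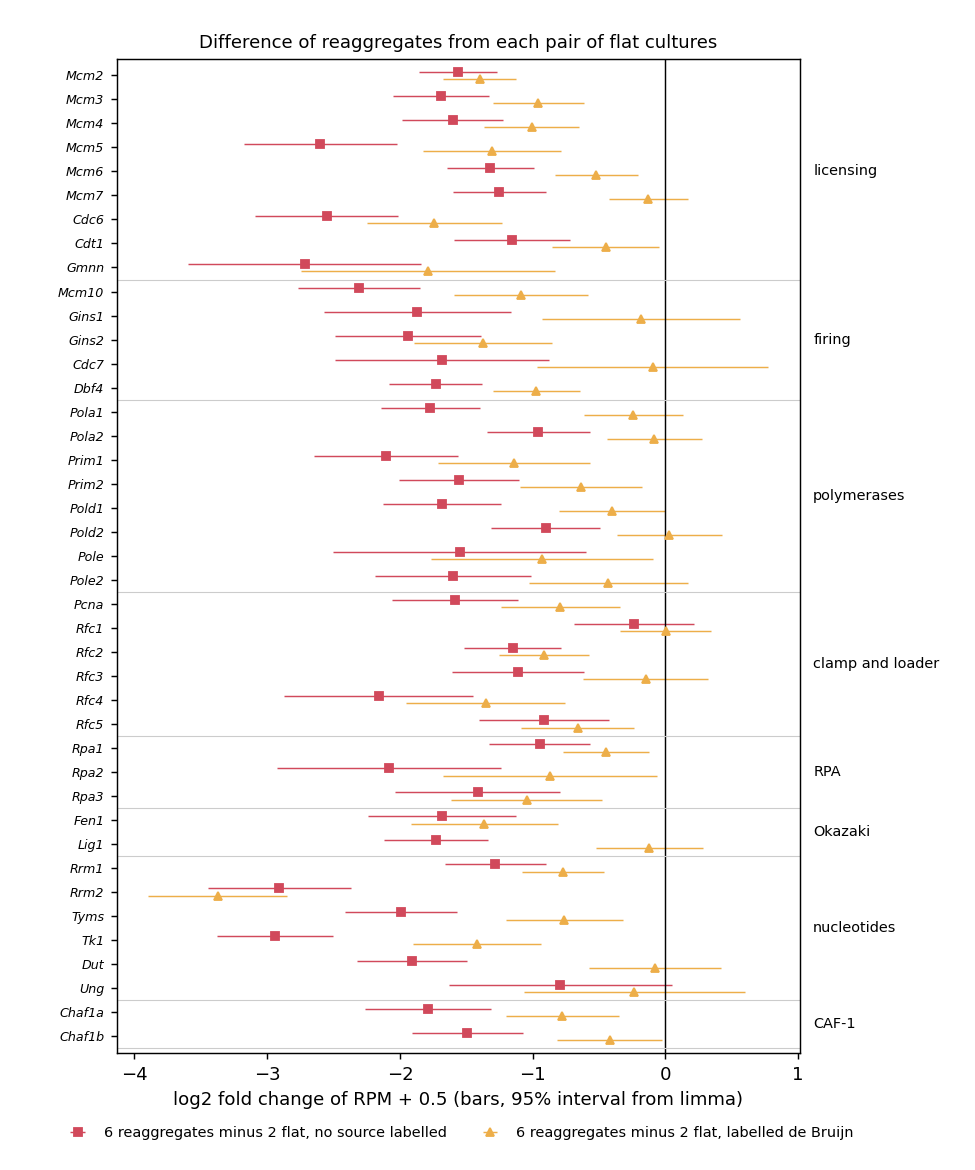
Log2 fold change of RPM + 0.5 between the 6 reaggregates and each pair of flat cultures, for the 41 genes by role, with 95% intervals from limma. Squares are the comparison with flat cultures 1 and 3, which carry no label of source, and triangles that with flat cultures 2 and 4, labelled de Bruijn, and with the values as deposited the triangle lies left of the square for *Rrm2* alone.

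Markers of fat cells moved with the source label. Of the 4 adipocyte markers found in the table, 3 were tested between the flat cultures and all 3 were called higher in flat cultures 2 and 4. Their summed level was 31.3, 440, 47.4 and 716 RPM in flat cultures 1 to 4 and between 19.3 and 45.6 RPM in the reaggregates. Nearly all of it was *Fabp4*, at 31.3, 435, 47.2 and 711 RPM. *Cidec* was at 2.98 and 3.16 RPM in flat cultures 2 and 4 and listed at 0 in 1 and 3, and *Adipoq* did not exceed 0.768 RPM in any library. *Cxcl12*, among the stromal markers, was at 125, 4560, 662 and 3990 RPM in the flat cultures. Against all flat cultures *Fabp4* was called lower in the reaggregates, with overlapping groups. The part of these markers in the results was not tested.

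IL-3 was compared within the reaggregates, as the flat cultures did not receive it. The called share was 0% of 16292 genes tested, and 0 of 41 members were called by limma. At an unadjusted p below 0.05, 0 members and 20 of all genes differed. The log2 differences of the members lay between −0.27 (*Ung*) and 0.25 (*Cdc6*), and their 95% intervals between −1.25 and 1.07, beyond 2-fold either way for the genes with the widest intervals. This fit does not pair consecutive reaggregates, which resembled each other; with them as a block, 0 members and 3 of all genes were called, all 3 lower with IL-3. *Rfc5* was the only member with separate groups, higher with IL-3. Of the 16292 genes tested, 179 were separate and higher and 114 separate and lower.

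Of 54 further genes of origin recognition, the replisome, nucleotide supply and replication-coupled chromatin, 22 fell and 0 rose by limma, with a median log2 fold change of −0.83, 47 lying below 0 and 7 above. Of these 54 genes 38 had an unadjusted p below 0.05, *Top1* among them with a log2 fold change above 0, where 7337 of all 16933 genes did. *Cdc45*, the partner of MCM and GINS in the active helicase, was at 32.6, 17.3, 25.5 and 24.5 RPM in flat cultures 1 to 4 and 4.12, 6.27 and 7.90 RPM in the reaggregates, and *Orc6* and *Gins4* had log2 fold changes of −1.26 and −1.16. Among these 14 origin genes 5 fell. The separate groups of *Cdc45* gave a log2 fold change of −1.91 (limma adjusted p = 0.000258). Of 17 further replisome genes 8 fell, with the largest changes in *Chtf18* (−1.77), which belongs to an alternative clamp loader, *Top2a* (−1.75) and *Pold4* (−1.62). *Top1*, chosen after its values were seen, was the replisome gene with a log2 fold change above 0, 0.78. It was not called there, but was called higher in the reaggregates against flat cultures 2 and 4, just past 2-fold (limma adjusted p = 0.00616).

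In nucleotide supply 6 of 16 further genes fell. *Dck* and *Umps*, which act in nucleoside salvage and in pyrimidine synthesis, had log2 fold changes of −1.91 and −1.25, and flat cultures 2 and 4 were above 1 and 3 in both. Of 7 chromatin genes 3 fell. *Asf1b*, a histone chaperone, was at 39.6, 22.5, 29.8 and 31.5 RPM in the flat cultures and 2.94, 4.19 and 6.37 RPM in the reaggregates (log2 fold change −2.69, limma adjusted p = 7.002e-05), and *Hells* and *Uhrf1* had log2 fold changes of −1.94 and −1.56.

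Of 15 regulators of entry into S phase 7 fell and 0 rose by limma, and 12 lay below 0. An unadjusted p below 0.05 was found for 10, among them *Rb1* and *Rbl2*, named after their values were seen, which lay above 0 (0.40 and 0.69) and were not called. *Ccne1*, which encodes cyclin E1, was at 30.4, 37.3, 29.7 and 45.2 RPM in flat cultures 1 to 4 and 3.16, 5.48 and 8.34 RPM in the reaggregates, and all flat cultures were well above all reaggregates. Its log2 fold change was −2.60, that of *Ccne2* −2.54 and that of *E2f8* −2.38. On a separate list of D cyclins and cell cycle inhibitors, 3 of 9 genes tested fell and 0 rose by limma, 6 lay below 0 and 3 above, and 7 had an unadjusted p below 0.05. *Ccnd1*, cyclin D1, was at 880, 1960, 1090 and 1810 RPM in the flat cultures and 180, 212 and 276 RPM in the reaggregates (log2 fold change −2.64, limma adjusted p = 6.621e-05), and was highest in flat cultures 2 and 4. *Ccnd2* and *Cdkn2d* also fell, with log2 fold changes of −1.78 and −1.31. The cell cycle inhibitor *Cdkn1a*, chosen after its values were seen, was at 553, 473, 573 and 322 RPM in the flat cultures and 616, 879 and 1070 RPM in the reaggregates, all of which were above the flat cultures, but by less than 2-fold (log2 fold change 0.83, limma adjusted p = 0.0179). Against flat cultures 2 and 4 it was called higher in the reaggregates, at 1.09.

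For comparison, all 25 mitosis genes of a list fell, with a median log2 fold change of −2.19 and separate groups in each. *Mad2l1*, *Aurka* and *Ccnb1* changed most, with log2 fold changes of −2.80, −2.75 and −2.71. The summed level of the list was 3062, 1140, 2330 and 1492 RPM in flat cultures 1 to 4 and between 308 and 503 RPM in the reaggregates. Against flat cultures 2 and 4 alone 22 of the 25 fell. Of 8 housekeeping genes only *Hprt*, an enzyme of purine salvage, fell (log2 fold change −1.23).

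Levels of different genes were compared per kilobase of annotated exon. All annotated exons of a gene were counted together, so the order of genes depends on the annotation. In flat cells the 6 MCM genes lay between 24.7 ± 11.3 (*Mcm7*) and 36.9 ± 2.81 (*Mcm2*) RPM per kb (SD, n = 4), and no neighbours in this order differed beyond their SDs. In the reaggregates *Mcm5*, at 8.10 ± 1.95 RPM per kb (SD, n = 6), had the lowest mean of the 6 and *Mcm6*, at 15.9 ± 1.72, the highest. Of the subunits of ribonucleotide reductase, *Rrm2* was at 76.8 ± 14.7 and *Rrm1* at 54.1 ± 13.9 RPM per kb in flat cells, while in the reaggregates *Rrm2* was at 8.63 ± 2.02 and *Rrm1* at 26.1 ± 3.01. The difference was beyond the spread only in the reaggregates, and in flat culture 1 *Rrm1* was above *Rrm2* per kb, as it was in the reaggregates. In RPA the level of *Rpa1* per kb was 41.1 ± 9.99 in flat cells and 25.0 ± 3.20 in the reaggregates. That of *Rpa3* was 31.9 ± 15.0 and 12.3 ± 1.39, and that of *Rpa2* 13.0 ± 7.28 and 4.33 ± 1.63. *Rpa2* thus had the lowest mean in both, but it differed from *Rpa3* beyond their SDs only in the reaggregates.

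Reads from some members cannot be told apart from those of a neighbour on the opposite strand. More than 10% of the exonic bases of 4 members were shared with another gene: 78.8% of *Fen1* with Gm10143, 67.3% of *Gins2* with *Gse1*, 12.6% of *Rfc4* with *Eif4a2* and 10.7% of *Rfc5* with *Wsb2*. The mean over all libraries was 9.96 RPM for Gm10143, 28.1 for *Gse1*, 261 for *Eif4a2* and 80.4 for *Wsb2*. A strand-specific count was not stated in the sources used here, and the values of these genes are uncertain for that reason. The percent of shared bases does not give the size of this uncertainty, which was not tested.

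The promoters of members were read for motifs because the genes moved together. A promoter window held 250 bases before and 50 after the annotated start in RefSeq (GRCm38.p6), and 34 of the 41 members had at least 1, with 40 windows in all. The E2F words TTTCCCGC, TTTCGCGC, TTTGCCGC and TTTGGCGC, searched on both strands, occurred in 27.5% of the members' windows and in 2.26% of all 32851 windows. CCAAT, the motif of NF-Y, occurred in 47.5% and 37.4%, and TTTGAA, the word of the cell cycle homology region, in 15.0% and 17.9%. The 24 windows of 22 mitosis genes showed another pattern, with an E2F word in 4.17%, CCAAT in 75.0% and TTTGAA in 70.8%. Windows of members that fell and of members not called held an E2F word at similar shares, 28.6% and 26.3%. A match describes the letters in the window and is not a binding site.

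**Figure D3:**
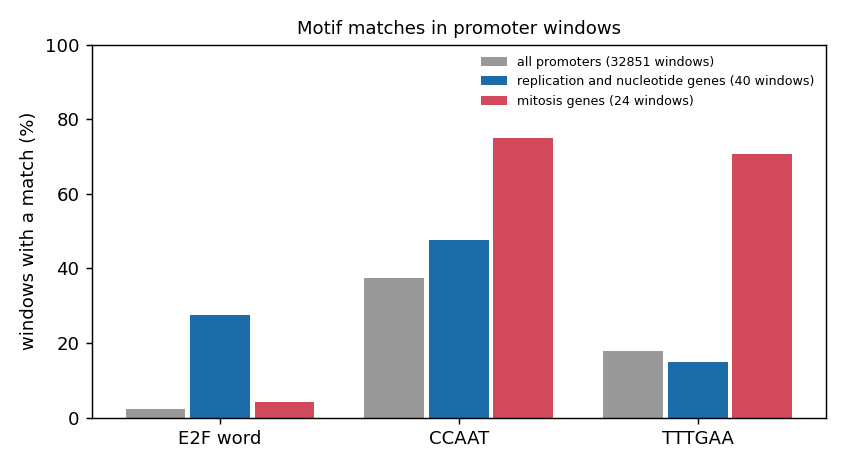
Percent of promoter windows with at least 1 match to an E2F word, to CCAAT or to TTTGAA on either strand, for all windows, the replication and nucleotide genes, and the mitosis genes. E2F words were found in 27.5% of windows of the replication and nucleotide genes, and TTTGAA in 70.8% of those of the mitosis genes.

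The upstream 250 bases are shown for the 4 members of lowest log2 fold change with an E2F word there, so that the words can be seen in place. They are *Cdc6* (−2.15, chr11:98907901-98908150, plus strand), *Mcm5* (−1.95, chr8:75109259-75109508, plus strand), *Pola1* (−1.01, chrX:93632156-93632405, minus strand) and *Mcm6* (−0.92, chr1:128359706-128359955, minus strand), in GRCm38.p6. Sequences run 5′ to 3′ towards the start, and capitals mark E2F words on either strand, which overlap each other in *Mcm5* and *Mcm6*. The word nearest to the start begins 138 bases before it in *Cdc6*, 149 in *Mcm5*, 138 in *Pola1* and 47 in *Mcm6*.
Cdc6: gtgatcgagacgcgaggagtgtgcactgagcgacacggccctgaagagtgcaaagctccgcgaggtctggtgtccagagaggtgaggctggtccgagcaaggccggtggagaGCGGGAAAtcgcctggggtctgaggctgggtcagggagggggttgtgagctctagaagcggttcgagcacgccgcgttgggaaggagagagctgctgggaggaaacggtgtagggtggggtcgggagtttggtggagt
Mcm5: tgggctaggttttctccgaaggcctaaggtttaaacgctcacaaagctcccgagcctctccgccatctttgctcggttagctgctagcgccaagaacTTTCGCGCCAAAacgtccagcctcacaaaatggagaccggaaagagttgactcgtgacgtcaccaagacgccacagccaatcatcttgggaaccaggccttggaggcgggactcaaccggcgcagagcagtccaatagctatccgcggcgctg
Pola1: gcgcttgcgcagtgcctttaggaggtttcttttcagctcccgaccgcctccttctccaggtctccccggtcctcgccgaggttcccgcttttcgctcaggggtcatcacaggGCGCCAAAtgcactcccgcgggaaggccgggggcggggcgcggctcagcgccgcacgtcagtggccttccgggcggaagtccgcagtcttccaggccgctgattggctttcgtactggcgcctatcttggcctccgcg
Mcm6: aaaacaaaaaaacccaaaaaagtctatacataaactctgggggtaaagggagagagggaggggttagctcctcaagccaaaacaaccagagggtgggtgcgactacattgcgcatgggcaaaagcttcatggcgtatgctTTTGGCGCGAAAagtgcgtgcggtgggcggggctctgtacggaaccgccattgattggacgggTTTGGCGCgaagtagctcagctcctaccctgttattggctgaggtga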

How the data were processed

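RNA-seq libraries of 6 OP9 reaggregates and 4 flat cultures were analysed. Per the labels, reads were aligned with TopHat 1.2.0 to NCBIM37/mm9. The authors deposited RPM values, reads per gene scaled to a common total, with multi-mapped reads divided among genes, and columns of their own DESeq comparison, which were not used here. Of values up to 10 RPM, only 40.2% to 46.0% equalled a whole number of reads within a tolerance of 0.05 reads, so read counts were not recovered and no count test was run. Depth was between 7.34 and 9.42 M reads on genes.

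Genes above 0.5 RPM in at least 1 library were compared on log2(RPM + 0.5) with limma 3.58.1 in R 4.3.3, with empirical Bayes moderation, a mean-variance trend and no covariates. A fold on this scale understates changes of low genes. A gene was called at a fold of 2 or more with a p, adjusted by Benjamini-Hochberg over all genes tested, no greater than 0.05. Groups came from the sample labels. Reaggregates were compared with flat cultures, reaggregates with IL-3 with those without it, and flat cultures labelled de Bruijn with those without a label of source. The fits were tested on simulated data, and no result given here rests on that test.

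Members and lists were chosen with earlier results of these data known. Named were, in each role, the members of lowest and highest log2 fold change, every member not called or above 0, up to 6 called between flat cultures or with IL-3, and from each other list the 3 largest changes among genes called and any gene called higher; further genes were named after their values were seen. Of the listed genes, *Ticrr*, *Spi1* and *Lep* were not matched to the table. Exonic lengths came from GENCODE vM1 on NCBIM37, a later annotation than that of the authors, and promoters from RefSeq. Altogether 52 alternatives were run, over pseudocount, filter, scaling, trend, thresholds, blocks, subgroups and left-out libraries. Figures were drawn with matplotlib.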

Additional observations from a re-analysis of the deposited data

Results flagged for a closer look

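In 2 of the 82 sets of values looked at, 1 library lay far from its group, and chance alone does this in about 1 in 20 sets. *Pole* was at 47.1 RPM in flat culture 3, the next highest flat culture being at 22.1 RPM, and it was not called without flat culture 3. *Pcna* was at 75.5 RPM in reaggregate 6, the next highest reaggregate being at 59.5 RPM, and all reaggregates were below the flat cultures.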

How the results depend on the processing

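Between reaggregates and flat cultures, 9 of the 26 members called, *Mcm2*, *Mcm4*, *Mcm5*, *Cdc6*, *Gmnn*, *Gins2*, *Fen1*, *Rrm2* and *Tk1*, kept their call under all 25 alternatives. The number of members called was 15 with consecutive reaggregates averaged, 16 with only the reaggregates without IL-3 and 12 with only those with IL-3. It was 13 against only the flat cultures labelled de Bruijn. Of all genes tested, 430 of 16598, 486 of 16693, 368 of 16750 and 1776 of 16697 were called lower in these settings. Each has fewer samples, as has the setting with only the flat cultures without a label of source, where 35 members were called. The median log2 fold change of members was −0.7694 against the cultures labelled de Bruijn. With consecutive reaggregates averaged, without IL-3 and with IL-3 it was −1.097, −1.079 and −1.115. When each library was left out in turn, the number of members called lay between 18, without flat culture 1, and 32, without flat culture 2. Of all genes, 1150 of 16836 and 1109 of 16870 were called lower in these 2 fits. Under the other alternatives the number lay between 21 and 35. The 35 were called against the flat cultures without a label of source, where 1080 of 16637 genes were called lower. With the replicate number as a block 21 members were called, where 1154 of 16933 genes were called lower. Same-numbered libraries did not deviate together, with correlations across genes of −0.0408, −0.213, 0.0722 and 0.155 for numbers 1 to 4, and nothing in the labels pairs them. The sign turned for *Rfc1*, to a log2 fold change of 0.03412 without flat culture 3 (−0.1908 without flat culture 1 being the lowest with 1 library left out) and 0.001249 against the flat cultures labelled de Bruijn, and for *Pold2*, to 0.03038 against the latter; neither gene was called in any setting, and the cause was not tested. Among single genes named, 43 values lost a call, 28 gained one and 1101 stayed on their side of the threshold.

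Between the flat cultures, the 8 members called became 5 with a pseudocount of 0.1 and 5 without a mean-variance trend. They became 3 under quantile normalization and 0 without the filter on low values, where more genes were tested. With a culture left out, which leaves a lone culture on one side, the median log2 difference of members lay between −1.09 and −0.74. Few or no member calls were left in those fits, while calls among all genes ended only without flat culture 1 or 3. With IL-3, 0 members were called under every alternative run; with consecutive reaggregates as a block, 3 of all genes were called lower, and *Rpa1* and *Mcm3* had unadjusted limma p-values of 0.0301 and 0.0426.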

Other observations

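The gene of the cell cycle inhibitors p16 and p19Arf, *Cdkn2a*, singled out after its values were seen, was at 36.3 and 37.9 RPM in flat cultures 2 and 4, labelled de Bruijn, and below the value of 1 read in flat cultures 1 and 3 and in all 6 reaggregates. The neighbouring *Cdkn2b* was measured in every library, at 155, 59.3, 141 and 50.9 RPM in flat cultures 1 to 4 and from 66.4 to 192 RPM in the reaggregates.

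Some replication genes outside the 41, also singled out after their values were seen, were high only in flat cultures 1 and 3. *Dscc1*, of the alternative clamp loader, was at 29.7, 1.19, 21.6 and 3.77 RPM in flat cultures 1 to 4 and from 3.69 to 5.31 RPM in the reaggregates, and *Atad5*, which unloads the clamp, at 30.6, 7.04, 32.5 and 10.3 RPM and from 7.16 to 11.0 RPM. Flat culture 2 was below every reaggregate in both genes. Their log2 differences between the flat cultures were −3.27 and −1.83 (limma adjusted p = 0.00343 and 0.0141).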
